A study of Homo sapiens with 6 samples.

Results

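The S100 calcium-binding proteins are small EF-hand proteins, and 10 of their genes were examined here (S100A2, S100A4, S100A6, S100A8, S100A10, S100A11, S100A13, S100A14, S100A16 and S100P), chosen by gene name from the 21494 genes of the deposited table. RNA-seq had been performed on G361 cells, a human melanoma line, with 3 libraries from cells carrying a control shRNA (Control sh, genotype given as WT) and 3 from VprBP-depleted cells, which stably carried an shRNA to DCAF1 (VprBP sh; VprBP is its protein, genotype given as DCAF1 Knockdown). The knockdown cells were described as a stable population made by lentiviral infection and selection, and a single shRNA sequence is described for VprBP, so that an effect of VprBP cannot be told apart from an effect of that shRNA or of the selected population. In the sample labels the line is G361 but the source name is LD611, and nothing in them says whether replicates were separate cultures, so that p-values measure only the spread between these libraries. The comparison asks how the levels of the S100 transcripts differ between control and VprBP-depleted cells.

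As background, S100 proteins form dimers, and in most of them calcium opens a surface that binds a target protein. They act inside the cell on annexins, myosin and other partners, and several are also released and act on receptors such as RAGE (AGER) and TLR4. Most S100 genes lie in a cluster on the long arm of chromosome 1 beside the genes of the epidermal differentiation complex, and S100B, which lies elsewhere, is a widely used marker of melanocytic cells.

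The libraries held 18195926 to 26883925 counts, and in each group replicates 2 and 3 differed less from each other (chi-square per degree of freedom of 2.45 and 2.32) than from replicate 1 (16.1 to 26.6). The targeted gene, DCAF1, was counted 688, 893 and 884 times in the Control sh libraries against 681, 488 and 628 times in the VprBP sh libraries, which gave -0.58 ± 0.17 on the log2 scale (SE; edgeR adjusted p = 0.0125), less than 2-fold, and its adjusted p was over 0.05 in 2 of 14 alternative analyses. After normalization, VprBP sh replicate 1 stood at 760 for DCAF1, close to the lowest Control sh library at 797. GAPDH and ACTB, read out for comparison, had log2 fold changes of -0.45 ± 0.08 and -0.42 ± 0.10 (SE, edgeR adjusted p = 0.00041 and 0.0042). Counts here are the deposited estimated counts, rounded. Of 7 melanocyte-lineage markers, SOX10, TYR and DCT were absent from the deposited table, whose genes each have a sum of at least 10 counts. MLANA and TYRP1 had at most 5 counts in any library, and MITF and PMEL had 154 to 312 and 28 to 46 counts. The urothelial markers KRT5 and KRT7 had 48190 to 73688 and 31453 to 36124 counts in Control sh against 2582 to 4524 and 15710 to 30647 counts in VprBP sh. Of the uroplakin genes on the same list, UPK1B was counted 500, 641 and 709 times in the Control sh libraries and never in a VprBP sh library. UPK2 fell from 176, 203 and 220 to 26, 44 and 73. UPK1A reached at most 5 in any library, and KRT20 and UPK3A were absent from the deposited table. Summed over the 6 of 8 urothelial markers analysed, there were 80636 to 110743 counts in Control sh against 21842 to 36155 counts in VprBP sh. Most of this sum came from KRT5 and KRT7. Mitochondrial RNA made up 1.96% to 1.98% of each Control sh library and 4.10% to 4.48% of each VprBP sh library. GATA3, another marker of this epithelium, went the other way, with 7, 1 and 0 against 1580, 1334 and 1873 counts. In bulk RNA, fewer cells of a type and less RNA per cell cannot be told apart. The part of these marker and mitochondrial differences in the S100 results was not tested. Whether both groups came from the same line was not tested either, and a difference between lines or populations cannot be told apart from the knockdown in any fold change given here.

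Of the 10 S100 genes, S100A4, S100A8 and S100A14 rose in VprBP sh, S100A2, S100A11 and S100A10 fell, and S100A6, S100P, S100A13 and S100A16 differed by less than 2-fold. The members furthest from no change were S100A4, at 39.6-fold higher in VprBP sh, and S100A2, at 300.2-fold lower. All 10 genes passed the filter on low counts and had an adjusted p under 0.05 in edgeR's quasi-likelihood test, as did 76.4% of the 16756 genes tested. A gene was said to rise or fall only if its fold change was also over 2. The libraries differed widely as a whole, with 24.5% of all genes tested called up and 22.0% called down, so that 3 of 10 in each direction is close to the background. The median log2 fold change of the 10 genes was -0.11, against 0.08 for all genes tested, and the median of its size was 1.27, against 0.92. Between 3 and 3 libraries an exact two-sided permutation test cannot give a p under 0.1.

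The promoter sequences of 5 of the 6 genes that rose or fell are shown first, because the members differ in sequence just before their starts in ways that can be set beside their values. RefSeq promoter windows of 250 bases before and 50 bases after the start on GRCh38.p14 matched all 10 genes, and the window at the start of the canonical GENCODE 44 transcript was used for each. The 180 bases before the start are printed 5′ to 3′ on the strand of the gene, with matches to 3 motifs in capitals (TATAAA, the TATA box; TGANTCA, the site of AP-1; GGGCGG, the GC box of SP1). Both strands were searched and overlapping matches were counted separately. S100A14 is not printed, as this stretch overlaps one of its own exons by 30 bases. The printed stretches, all on the minus strand, are chr1:153545807-153545986 for S100A4, chr1:153391074-153391253 for S100A8, chr1:153565845-153566024 for S100A2, chr1:152037005-152037184 for S100A11 and chr1:151993860-151994039 for S100A10.
S100A4: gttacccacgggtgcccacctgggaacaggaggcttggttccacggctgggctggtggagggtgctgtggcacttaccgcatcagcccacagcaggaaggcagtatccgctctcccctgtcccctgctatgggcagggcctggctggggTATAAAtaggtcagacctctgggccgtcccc
S100A8: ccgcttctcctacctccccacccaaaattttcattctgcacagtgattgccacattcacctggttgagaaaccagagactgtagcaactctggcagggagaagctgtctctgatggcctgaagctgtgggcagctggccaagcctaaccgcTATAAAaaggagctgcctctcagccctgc
S100A2: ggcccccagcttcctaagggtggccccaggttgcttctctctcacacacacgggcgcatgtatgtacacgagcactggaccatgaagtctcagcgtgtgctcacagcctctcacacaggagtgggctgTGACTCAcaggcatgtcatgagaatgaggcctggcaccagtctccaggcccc
S100A11: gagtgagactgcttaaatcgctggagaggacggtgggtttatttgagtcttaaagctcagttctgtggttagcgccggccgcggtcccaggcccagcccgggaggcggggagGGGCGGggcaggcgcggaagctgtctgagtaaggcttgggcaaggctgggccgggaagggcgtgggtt
S100A10: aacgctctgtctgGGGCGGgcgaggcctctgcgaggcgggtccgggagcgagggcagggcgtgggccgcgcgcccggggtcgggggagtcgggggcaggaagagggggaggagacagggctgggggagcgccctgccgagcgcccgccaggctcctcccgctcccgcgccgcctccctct
The TATA box lay 31 bases before the start in S100A4 and 29 bases before it in S100A8, which both rose, and also 29 and 28 bases before it in S100A13 and S100P, which did not pass the 2-fold cutoff. It was present in 11.5% of the 35116 promoter windows. The AP-1 motif was found in S100A2 alone of the 10 genes, 52 bases before the start, and in 7.71% of all windows. The GC box was found once in S100A11 and once in S100A10, 68 and 167 bases before the start, and 3 times in S100A6, where the last 2 overlap, and in 45.0% of all windows. These 3 genes also held 22, 32 and 31 CG dinucleotides in their windows of 300 bases, against 2 to 11 in the other 7 genes and a median of 14 over all windows. S100A14 and S100A16 held none of the 3 motifs. A match is a description of the letters only.

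S100A2 and S100A4 are neighbours on the minus strand of chromosome 1, with 10971 bases between them, and they went in opposite directions. S100A2 (ENSG00000196754.13, chromosome 1 from 153561108 to 153567890 on hg38), known from basal epithelial cells, was counted 7457, 7273 and 8763 times in the Control sh libraries against 33, 28 and 22 times in the VprBP sh libraries. The groups were far apart, with the highest VprBP sh library at 36.8 normalized counts and the lowest Control sh library at 7906. The mean fell from 8286 ± 369 to 27.6 ± 10.1 normalized counts (SD, n = 3), -8.28 ± 0.20 on the log2 scale (SE; edgeR adjusted p = 1.39e-09), which was rank 531 among the decreases of all genes tested.
S100A4 (ENSG00000196154.12, chromosome 1 from 153543613 to 153550136), also called metastasin, binds non-muscle myosin IIA and is used as a marker of motile and mesenchymal cells. It was counted 117, 133 and 172 times in the Control sh libraries against 6403, 4827 and 7054 times in the VprBP sh libraries. All VprBP sh libraries were above all Control sh libraries, and replicate 1 was the highest of them after normalization. The mean rose from 148 ± 14 to 5857 ± 1136 normalized counts (SD, n = 3), 5.30 ± 0.17 on the log2 scale (SE; edgeR adjusted p = 5.53e-09), rank 508 among the increases. S100A3, whose gene lies within the span of S100A4 on the same strand without sharing exonic bases, fell, from 193 ± 27 to 87.5 ± 7.2 normalized counts (SD, n = 3, edgeR adjusted p = 0.000187).
The ratio of S100A4 to S100A2 within a library needs no scaling between libraries. In counts per kilobase of exon it was 0.0256, 0.0299 and 0.0321 in Control sh against 317, 282 and 524 in VprBP sh, so that the more abundant of the pair changed from S100A2 to S100A4 in every library.

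**Figure D1:**
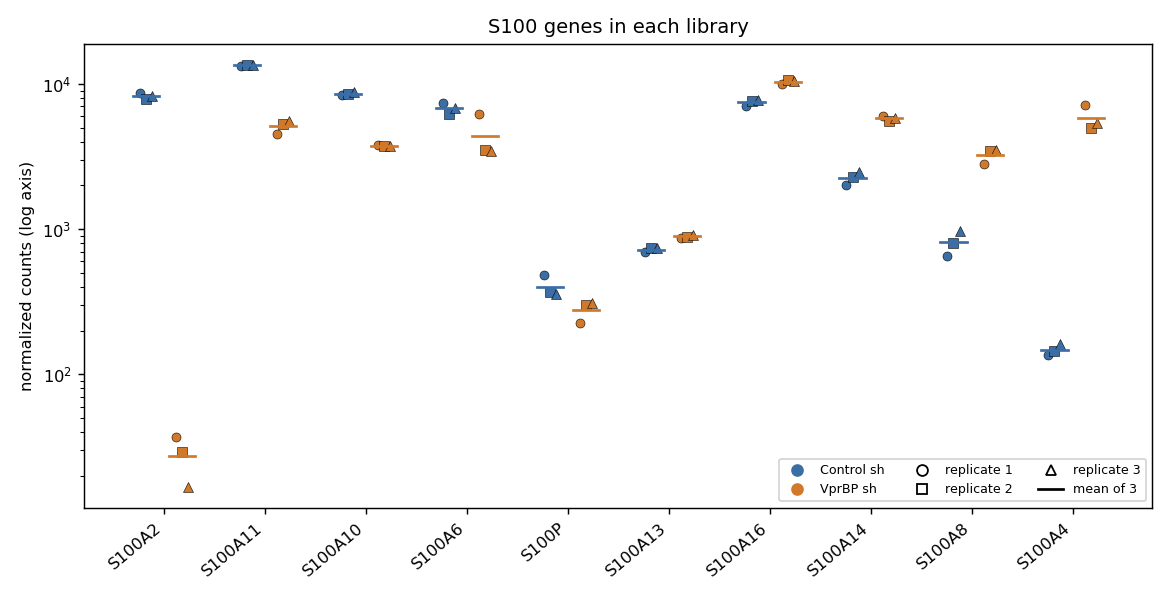
Normalized counts (log axis) of the 10 S100 genes in each library, ordered by fold change, with Control sh in blue, VprBP sh in orange, a marker shape for each replicate and a line at the mean of 3. S100A2 sat at 7906 to 8643 in Control sh against 16.9 to 36.8 in VprBP sh, S100A4 at 136 to 163 and 5016 to 7149, and in S100A6 the groups overlapped.

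S100A10 and S100A11 lie at the other end of the cluster and encode the S100 subunits of annexin complexes. Both fell, and more narrowly than S100A2. S100A10 (ENSG00000197747.9, chromosome 1 from 151982915 to 151993859), the p11 protein that binds annexin A2 and has lost the ability to bind calcium, was counted 7218, 7854 and 9234 times in the Control sh libraries against 3424, 3575 and 4905 times in the VprBP sh libraries. The mean fell from 8553 ± 195 to 3766 ± 54 normalized counts (SD, n = 3), -1.18 ± 0.07 on the log2 scale (SE; edgeR adjusted p = 3.66e-07). With library size as the only scaling, its log2 fold change was -0.97 (edgeR adjusted p = 1.37e-06), which does not reach 2-fold, while the median of all genes tested stood at 0.29.
S100A11 (ENSG00000163191.6, chromosome 1 from 152032506 to 152047907), which binds annexin A1, was counted 11509, 12371 and 14246 times in the Control sh libraries against 4025, 5122 and 7230 times in the VprBP sh libraries. After normalization the Control sh libraries lay within 13340 to 13506 and the VprBP sh libraries between 4494 and 5542, with replicate 1 the lowest. On the log2 scale the difference was -1.39 ± 0.09 (SE; edgeR adjusted p = 7.43e-07).
The genes of annexins A2 and A1 fell as well (edgeR adjusted p = 4.09e-07 and 1.28e-07). ANXA2 went from 33567 ± 1184 to 12225 ± 1085 normalized counts and ANXA1 from 11465 ± 1184 to 2767 ± 260 (SD, n = 3). ANXA6, another annexin gene read here, rose (log2 fold change 1.71, edgeR adjusted p = 1.75e-06). Per kilobase of exon, S100A10 stood at 2.97, 2.88 and 2.90 times ANXA2 in Control sh against 3.98, 3.36 and 3.30 times in VprBP sh, ranges that did not overlap but lay close (exact two-sided permutation p = 0.1). The ratio of S100A11 to ANXA1 was 8.10 ± 0.83 in Control sh against 12.8 ± 2.4 in VprBP sh (SD, n = 3; exact two-sided permutation p = 0.1), and the libraries did not overlap.
S100A6 (ENSG00000197956.10, chromosome 1 from 153534599 to 153536244), calcyclin, which binds the protein of CACYBP, was counted 6386, 5696 and 7230 times in the Control sh libraries against 5580, 3353 and 4484 times in the VprBP sh libraries. Replicate 1 of VprBP sh, at 6230 normalized counts, lay above the lowest Control sh library, at 6192, whereas replicates 2 and 3 lay at 3484 and 3437. On the log2 scale the difference was -0.64 ± 0.21 (SE; edgeR adjusted p = 0.0191), and without VprBP sh replicate 1 it was -0.98 (edgeR adjusted p = 2.02e-05). In 5 of 14 alternatives its adjusted p was over 0.05, up to 0.0910 with library size alone.

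S100A8 (ENSG00000143546.10, chromosome 1 from 153390032 to 153391073), which pairs with S100A9 to form calprotectin, an antimicrobial and inflammatory complex of myeloid cells and stressed epithelia, was counted 563, 737 and 1032 times in the Control sh libraries against 2511, 3327 and 4611 times in the VprBP sh libraries. The lowest VprBP sh library, at 2804 normalized counts, was well above the highest Control sh library, at 978. The mean rose 4.03-fold, with 2.01 ± 0.15 on the log2 scale (SE; edgeR adjusted p = 1.66e-06). S100A9, its partner, had 9349 ± 875 and 15663 ± 2142 normalized counts (SD, n = 3), 0.74 ± 0.12 on the log2 scale (SE; edgeR adjusted p = 0.000249), less than 2-fold. Per kilobase of exon, S100A8 stood at 0.0408, 0.0602 and 0.0684 of S100A9 in Control sh against 0.137, 0.134 and 0.133 in VprBP sh, without overlap (exact two-sided permutation p = 0.1).
Of 6 myeloid markers, read out because myeloid cells are a known source of S100A8, PTPRC, LYZ and FCGR3B were absent from the deposited table. ITGAM had 9 to 15 counts in Control sh against 0 to 2 counts in VprBP sh, CD14 had 626 to 710 and 120 to 544 counts, and CSF3R had 0 counts in every Control sh library and 62, 151 and 224 counts in VprBP sh. Summed over the list, this gave 635 to 725 counts in Control sh against 182 to 770 counts in VprBP sh, and their part in the S100A8 result was not tested.

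S100A16, S100A14 and S100A13 lie next to each other on the minus strand, and in each of them all VprBP sh libraries lay above all Control sh libraries. S100A14 (ENSG00000189334.9, chromosome 1 from 153614255 to 153616986), a protein of epithelial cells, was counted 1730, 2106 and 2621 times in the Control sh libraries against 5407, 5363 and 7618 times in the VprBP sh libraries. It rose from 2260 ± 241 to 5816 ± 233 normalized counts (SD, n = 3), 1.36 ± 0.10 on the log2 scale (SE; edgeR adjusted p = 9.37e-07). Its neighbour S100A16 (ENSG00000188643.11, chromosome 1 from 153606886 to 153613145), a widely expressed member, had 7074, 7675 and 7717 normalized counts in Control sh against 10027, 10654 and 10507 in VprBP sh. Its means were 7489 ± 360 and 10396 ± 327 normalized counts (SD, n = 3), 0.47 ± 0.08 on the log2 scale (SE; edgeR adjusted p = 0.000314), less than 2-fold. Per kilobase of exon, S100A14 stood at 0.378, 0.397 and 0.429 of S100A16 in Control sh against 0.802, 0.697 and 0.740 in VprBP sh, without overlap (exact two-sided permutation p = 0.1).
S100A13 (ENSG00000189171.15, chromosome 1 from 153618787 to 153631360), which takes part in the release of FGF1 from cells, had 692, 738 and 738 normalized counts in Control sh against 874, 884 and 918 in VprBP sh. Its means were 723 ± 26 and 892 ± 23 normalized counts (SD, n = 3), 0.30 ± 0.09 on the log2 scale (SE; edgeR adjusted p = 0.0112). It shares 24.2% of its exonic bases with a lncRNA (ENSG00000271853) on the same strand and 10.6% with S100A1 on the other strand. These are shares of bases, not of reads. How reads over them were assigned was not tested, so that its counts are uncertain by an amount not known. That lncRNA had 3 to 4 counts in Control sh against 29 to 35 counts in VprBP sh, and S100A1 had 3, 16 and 27 counts and 19, 42 and 57 counts. In 4 of 14 alternatives the adjusted p of S100A13 was over 0.05, up to 0.128 with replicates 2 and 3 summed (edgeR). Among these, TMM factors gave a log2 fold change of 0.21 (edgeR adjusted p = 0.0540) and DESeq2 0.18 (adjusted p = 0.0943 from DESeq2). Library size alone gave 0.52 (edgeR adjusted p = 0.000559).
S100P (ENSG00000163993.7, chromosome 4 from 6693878 to 6697170) is the only one of the 10 genes outside chromosome 1. Its protein binds ezrin and RAGE. It was counted 414, 339 and 376 times in the Control sh libraries against 202, 288 and 407 times in the VprBP sh libraries. After normalization the highest VprBP sh library, at 312, lay below the lowest Control sh library, at 356. On the log2 scale the difference was -0.52 ± 0.17 (SE; edgeR adjusted p = 0.0173). In 3 of 14 alternatives the adjusted p was over 0.05, up to 0.109 with library size alone (log2 fold change -0.31, edgeR).

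**Figure D2:**
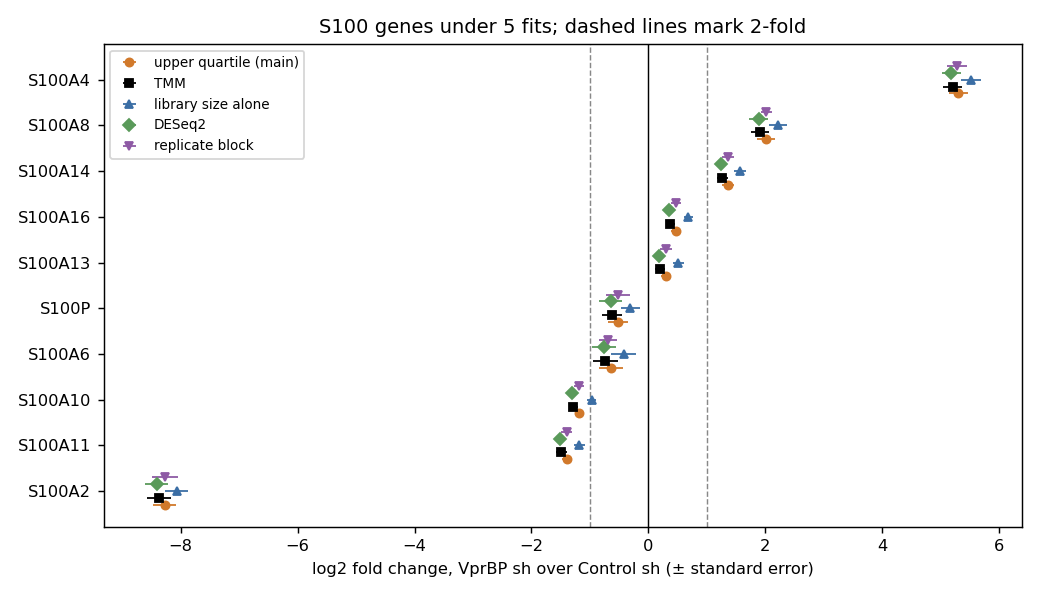
Log2 fold change of VprBP sh over Control sh for the 10 S100 genes (± standard error) in 5 fits, with dashed lines at 2-fold. Library size alone placed every gene to the right of the other fits, by which S100A10 moved from -1.18 to -0.97, inside the 2-fold line.

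Taken by library, 9 of the 10 genes showed no overlap between groups, 5 with VprBP sh above and 4 with VprBP sh below. Among all genes tested, 42.2% showed no overlap with VprBP sh above and 37.3% with VprBP sh below. The spread between replicates also differed among the genes. In VprBP sh the SD was 36.5% of the mean in S100A6 and in S100A2 and 1.44% in S100A10, whereas in Control sh it ran from 0.629% in S100A11 to 20.1% in S100A8.

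The 10 genes together took 0.203%, 0.204% and 0.212% of all counts in Control sh against 0.205%, 0.188% and 0.191% in VprBP sh, and the ranges overlapped. Their summed normalized counts did not overlap, at 48100 to 49861 in Control sh against 38433 to 41701 in VprBP sh, and neither did those of the whole table, at 23539053 to 24009402 against 20316001 to 20608320. The make-up of the members' sum differed. Levels of different genes were compared per kilobase of exon, on normalized counts. In Control sh the highest was S100A11 at 20695 ± 130, followed by S100A10 (8451 ± 192), S100A6 (7020 ± 624), S100A2 (5359 ± 239), S100A16 (4402 ± 212) and S100A14 (1770 ± 189). The lowest 4 were S100A8 (910 ± 183), S100P (853 ± 144), S100A13 (326 ± 12) and S100A4 (156 ± 14.8; SD, n = 3 for each). Only S100A8 and S100P overlapped among neighbors in this order.
In VprBP sh the order was S100A11 (7888 ± 852), S100A4 (6192 ± 1200), S100A16 (6112 ± 193), S100A14 (4555 ± 183), S100A6 (4515 ± 1647), S100A10 (3721 ± 54), S100A8 (3665 ± 451), S100P (592 ± 99), S100A13 (403 ± 10) and S100A2 (17.9 ± 6.5; SD, n = 3 for each). S100A4 thus moved from rank 10 to rank 2, and S100A2 from rank 4 to rank 10. The libraries of S100A11, S100A4 and S100A16 overlapped from one to the next, and so did those of S100A14, S100A6, S100A10 and S100A8. As shares of the sum over the 10 genes, S100A11 and S100A10 together with S100A2 gave way, from a mean of 41.4%, 16.9% and 10.7% in Control sh to 21.0%, 9.89% and 0.0472% in VprBP sh, and S100A4, S100A14 and S100A8 went from 0.313%, 3.54% and 1.82% to 16.4%, 12.1% and 9.77%.

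**Figure D3:**
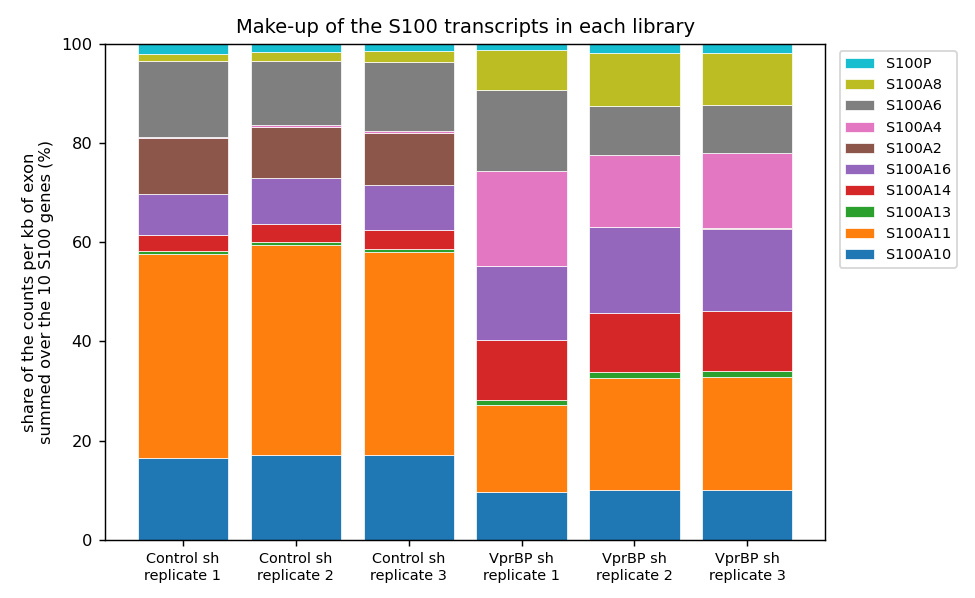
Share of each of the 10 S100 genes (%) in the counts per kilobase of exon summed over them, one bar for each library. S100A11 made up 41.0% to 42.2% of each Control sh bar and 17.6% to 22.9% of each VprBP sh bar, while S100A4 went from at most 0.340% to between 14.6% and 19.2%.

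The remaining genes of the family were read from a list of 18, made up of the other S100 genes and the fused S100 genes, which encode large proteins of the epidermal surface. Of these, 13 were analysed and 9 passed the filter on low counts, with a median log2 fold change of 0.74. Among the 9, 3 rose and 3 fell, against 24.5% called up and 22.0% called down of all genes tested. S100B was absent from the deposited table. The genes that rose were S100A7A (70.8 ± 3.4 to 1937 ± 530 normalized counts, edgeR adjusted p = 7.55e-08), S100A7 (294 ± 8 to 4580 ± 1344, adjusted p = 1.84e-07) and TCHH, which encodes trichohyalin (242 ± 66 to 610 ± 77, adjusted p = 0.000173; SD, n = 3). S100A7, which encodes psoriasin, and S100A7A are related copies with 486 and 4458 bases of exon. They could share reads over part of that length, so that the split between them is uncertain by an amount not tested. They lie directly beside S100A8. The genes that fell were HRNR, which encodes hornerin, with 770, 444 and 478 counts in Control sh against 1, 0 and 1 counts in VprBP sh (at least 209-fold lower against a floor of 3 counts per library), TCHHL1, with 17, 22 and 32 counts falling to 8, 4 and 10, and S100A3. HRNR and TCHHL1 passed the filter through Control sh alone, so that they could hardly be called higher in VprBP sh. FLG, which encodes filaggrin, had 228 ± 18 and 122 ± 37 normalized counts (SD, n = 3), less than 2-fold apart. S100A5, S100A12, FLG2 and CRNN had at most 12 counts in any library.

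Of the 39 genes analysed on chromosome 1 from S100A10 to S100A1 (151982915 to 153632039), 23 were neither members nor other S100A genes, and 16 of these passed the filter on low counts. In this group, which includes the fused S100 genes above, 12 fell and 3 rose. Of all genes tested, 22.0% were called down and 24.5% up. In all 3 VprBP sh libraries, 13 of the 23 genes had no more than 3 counts, against 11.4% of the whole table, and 5 of the 13 were too low in both groups to be tested. The other 8 are among the 12 that fell and passed the filter through Control sh alone, so that they could only be lower in VprBP sh. TCHHL1 (8, 4 and 10 counts in VprBP sh) and PGLYRP3 (0, 2 and 5 counts), also among the 12, passed it through Control sh alone as well. PGLYRP3 is named for its low counts. With at least 10 counts required in each library, the genes called in the whole region went from 24 to 12. Those 8 include the small proline-rich genes SPRR1A, SPRR1B, SPRR2A, SPRR2D and SPRR2E of the cornified envelope, with 26, 24 and 31 counts of SPRR1A and 214, 114 and 115 counts of SPRR2A in Control sh. The SPRR2 genes are close copies that could share reads. These SPRR genes were chosen after their values were seen. Involucrin (IVL), another envelope gene chosen in the same way, fell from 156, 149 and 200 counts to 26, 39 and 57 counts. In the stretch of 96.8 kb from S100A6 to S100A13, S100A4, S100A14 and 2 lncRNAs rose, and S100A2 and S100A3 fell. S100A6, S100A16, S100A13 and S100A1, which reaches into this stretch, were not called. The 2 lncRNAs, also among the 3 that rose above, reached 10 counts in all 3 libraries in VprBP sh only. They could therefore hardly be called lower. Leaving them aside, S100A4 and S100A14 were called up and S100A2 and S100A3 down in this stretch. Among those not called, S100A16, S100A13 and S100A1 had log2 fold changes of 0.47, 0.30 and 1.20, and S100A6 had -0.64. S100A5 was too low to be tested. Outside the region, THEM4, the gene before S100A10, rose from 223 to 480 normalized counts in the mean (log2 fold change 1.10, edgeR adjusted p = 2.50e-05), and MRFAP1L1, the gene after S100P on chromosome 4, had a log2 fold change of -0.03 (edgeR adjusted p = 0.824).

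**Figure D4:**
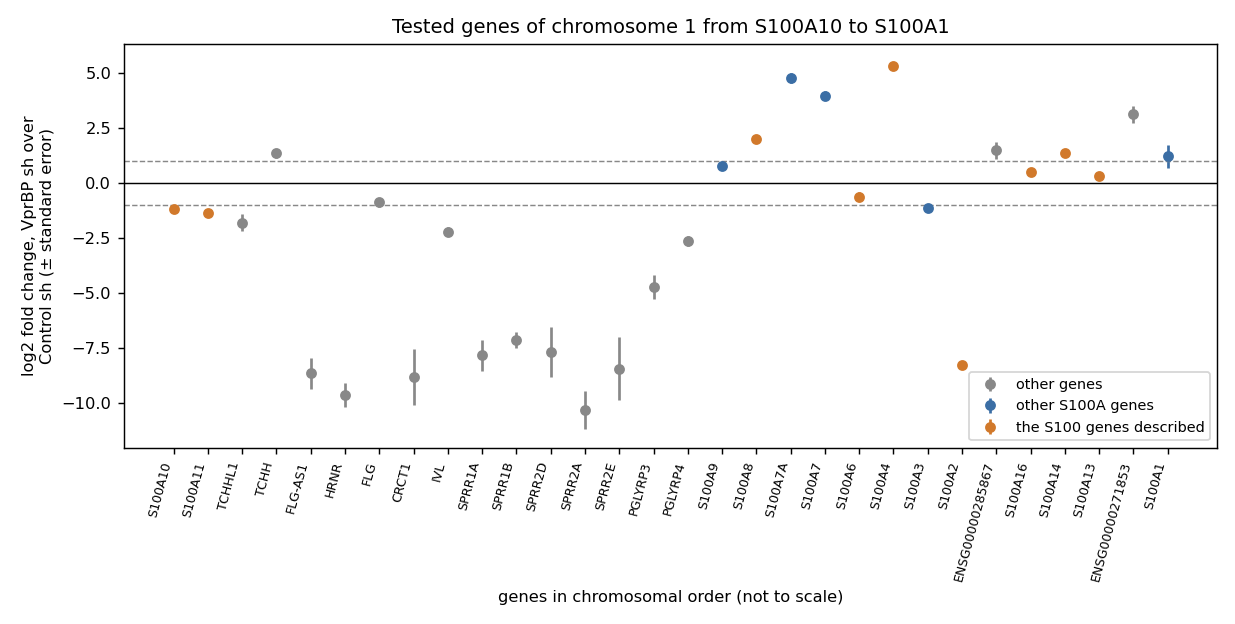
Log2 fold change (± standard error) of the 30 tested genes of chromosome 1 from S100A10 to S100A1 in chromosomal order, with the 10-gene set in orange, other S100A genes in blue and all other genes in gray. Fitted values of genes near 0 counts in VprBP sh depend on the prior count and give the direction only. S100A4 at 5.30 and S100A2 at -8.28 stand close together at the right.

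Genes whose proteins bind or receive S100 proteins were read from a list of 21, of which 20 were analysed and 19 passed the filter on low counts. Of these, 4 rose and 7 fell, against 24.5% called up and 22.0% called down of all genes tested. Their median log2 fold change was -0.79. TLR4 was absent from the deposited table. AGER, the receptor RAGE, rose at a low level, with 35, 31 and 38 counts in Control sh against 94, 87 and 113 counts in VprBP sh (log2 fold change 1.35, edgeR adjusted p = 0.000252). ANXA6, another annexin, rose from 393 ± 33 to 1280 ± 182 normalized counts (edgeR adjusted p = 1.75e-06) and FGF1, the growth factor exported with S100A13, from 47.0 ± 6.8 to 209 ± 80 (adjusted p = 0.000141; SD, n = 3).
IL1A, whose product also leaves cells with S100A13, had 6827, 8312 and 9847 counts in Control sh but was not counted once in VprBP sh (0 in all 3 libraries), at least 2998-fold lower against a floor of 3 counts per library. SYT1, a synaptotagmin of the FGF1 export complex, had 154, 158 and 202 counts and 0, 5 and 2 counts. IL1A and SYT1 passed the filter through Control sh alone, so that they could hardly be called higher in VprBP sh. EZR, which encodes ezrin, fell (log2 fold change -1.57, edgeR adjusted p = 1.32e-07), as did AHNAK, the giant scaffold bound by S100A10 with annexin A2 (-1.31, adjusted p = 2.86e-05), and BSG (-1.19, adjusted p = 5.70e-06). MYH9, the myosin bound by S100A4, had a log2 fold change of -0.79 (edgeR adjusted p = 1.83e-05), and CACYBP had -0.44 (adjusted p = 0.0148), both less than 2-fold. The values of ANXA2, EZR, AHNAK, BSG, MYH9, CACYBP, AGER and S100A9 were picked out after they were seen, for their known pairing with a member.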

How the data were processed

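Per the sample labels and the methods of the study, STAR alignments of single-end reads (hg38) were turned by the authors into estimated counts with Partek Flow, and these were deposited without normalization or pooling. Every gene of the table has a sum of at least 10. The methods describe a KAPA stranded kit and the labels a SMARTER kit, and strand-specific counting is not given in the sources used here. Estimated counts were rounded. edgeR 4.0.16 (R 4.3.3) was run on all 6 libraries with upper quartile factors (0.75), its filter on low counts (minimum 10) and no replicate block. Calls needed a fold change over 2 and an adjusted p (Benjamini-Hochberg) under 0.05. Normalized counts are counts scaled by those factors, standard errors are the log2 fold change over the square root of F, and exon lengths are unions of GENCODE 44 exons, whose coordinates matched the table. A total of 3 counts, the floor, was 2.30 to 3.48 normalized counts and covers counting error only. The alternatives were TMM, library size alone, DESeq2 1.42.0, limma-voom (limma 3.58.1), other filters, a replicate block, leaving out each library, and summing replicates 2 and 3. Tests were tried on simulated counts. Deviations of same-numbered libraries from their group means correlated at -0.203, -0.0769 and -0.154, so the numbers were not taken as pairs. Members, lists and tests were chosen with earlier results of these data known. The genes named with values were the members, DCAF1, GAPDH, ACTB, cell type markers and direct neighbours. The 3 largest changes in each direction of each list were named too, and others are marked. A gene of the partner list is not reported here.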

Additional observations from a re-analysis of the deposited data

How the results depend on the processing

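Across 14 alternatives the direction of all 10 S100 genes was kept. S100A2, S100A4, S100A8, S100A11 and S100A14 were called in all 14, and S100A10 in 13, the exception being library size alone, where 2 genes of the set were called down in place of 3. The number called up was 3 in every alternative. S100A6 ranged from -0.98 (without VprBP sh replicate 1) to -0.42 on the log2 scale and S100P from -0.66 to -0.31, and neither was called in any alternative. S100P without Control sh replicate 1 had -0.38 (adjusted p = 0.0639 from edgeR). The 7778 genes called in all became 4690 when only genes reaching 10 counts in each library were tested, and the 24 called in the chromosome 1 region became 12. This filter removes genes absent from a group. With a replicate block, 7686 genes were called, and 3 of the set up and 3 down; S100P then had an adjusted p of 0.0596 (edgeR) and the other 9 genes stayed under 0.05. The upregulated share of called genes was 52.7%, and 60.1% with library size alone, 48.8% with TMM and 47.7% with DESeq2. Using the longest transcript in place of the union of exons placed S100A16 ahead of S100A4 in VprBP sh. It also moved S100A14 there from rank 4 to rank 6, behind S100A6 and S100A10. The order in Control sh was unchanged. Low counts limit S100A1, S100A5 and S100A12.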
